A study of Bos taurus with 12 samples.

Results

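The abundance of transcripts for steroid receptors and the proteins that work with them was examined in bovine endometrium before embryo transfer. The 10 genes were ESR1, ESR2, PGR, PGRMC1, NR3C1, FKBP4, FKBP5, NCOA1, NCOR1 and NR2F2. They were represented by every probe set to which the platform annotation assigns one of these symbols alone, which gave 21 of 24016 probe sets and 10 of 9155 named genes. There was 1 probe set each for ESR1, ESR2, PGR, FKBP4 and FKBP5, 2 each for PGRMC1 and NR3C1, 3 for NR2F2, 4 for NCOA1 and 5 for NCOR1. Probe sets of a gene are read separately, since the level of one cannot be set against that of another, and are ranked by their mean signal, the plots giving their names.

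The samples were 12 RNA pools of endometrium from Simmental heifers, each hybridised to 1 Affymetrix bovine array. There were 4 groups of 3 pools: receptive on day 7, non-receptive on day 7, receptive on day 3 and non-receptive on day 3 of the estrous cycle. An endometrium was called receptive or non-receptive according to whether a pregnancy followed the transfer of embryos produced in vivo. No treatment or genetic modification is given for any group. The labels do not say how many heifers make up a pool or whether the pools of a group hold different animals. They also do not say whether the pools of day 3 and day 7 come from the same animals. The p-values therefore measure only the spread between pools, which may be technical. All values are deposited log2 signals, on which a difference of 1 is a doubling.

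Steroid hormones act in the uterus mainly through nuclear receptors, ligand-activated transcription factors that rest in a complex with heat shock protein chaperones and, once bound by hormone, recruit coactivators or corepressors to target genes. Estrogen acting through ESR1 induces ESR1 itself and PGR in the uterus around estrus, while the rising progesterone of the luteal phase acts through PGR and later lowers both receptors in the uterine epithelium. Day 3 falls early and day 7 later in the formation of the corpus luteum, which supplies this progesterone.

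The signals of the receptors lay at different heights on the array. PGRMC1, a membrane-associated heme-binding protein linked to rapid progesterone responses, had a mean log2 signal of 11.19 and 9.41 on its 2 probe sets, above 97.2% and 85.9% of all probe sets. NR3C1, the glucocorticoid receptor, had 1 bright probe set (8.46, above 74.7%) and 1 dim probe set (4.44, above 19.4%). The classical sex steroid receptors were all in the lower part of the range. ESR2, estrogen receptor beta, averaged 5.80, above 37.4% of probe sets, PGR, the progesterone receptor, averaged 4.37, above 18.6%, and ESR1, estrogen receptor alpha, averaged 3.88, above 13.7%.

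Among the cofactors, FKBP4 (FKBP52), an immunophilin cochaperone that raises the activity of PGR and NR3C1, had a mean signal of 9.69, above 88.6% of probe sets. FKBP5 (FKBP51), its counterpart that restrains glucocorticoid receptor activity and is itself induced by glucocorticoids and progestins in many cell types, had a mean of 3.54, above 10.9%. The coactivator NCOA1 (SRC-1) had means between 7.35 and 8.74 on its 4 probe sets. The corepressor NCOR1 had means between 5.20 and 9.58 on its 5 probe sets. NR2F2 (COUP-TFII), an orphan nuclear receptor of the uterine stroma that in mice acts downstream of PGR and Indian hedgehog, had 9.13 on both bright probe sets and 2.80 on a dim one, which exceeded 6.36% of probe sets. None of the 21 probe sets was at the floor of 0 in any pool, and 13 of 21 lay above the median probe set. No call of presence or absence was used, so a signal above 0 does not by itself show that a transcript was detected.

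The spread between pools of a group was wide for the dim probe sets. The within-group SD was 0.75 for FKBP5, 0.68 for PGR, 0.37 for ESR2 and 0.34 for ESR1, against a median of 0.25 over all probe sets. It was 0.20 or less for both PGRMC1 probe sets and FKBP4 (0.17, 0.18 and 0.20).

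Array medians lay between 6.64 and 6.76. A mean signal above the median probe set was found for 6 of 7 epithelial markers (EPCAM 13.01, KRT19 12.54 and CDH1 12.14 among them), but not for KRT8 (6.28). Between days 0 of 7 passed, with an unadjusted p below 0.05 in limma for 2 of them. Of 9 stromal fibroblast markers, 2 fell on day 7 (COL3A1 and THY1, kept in 10 and 8 of 17 alternatives), 8 of 9 had a negative change, and none was at 0. The stromal score, the mean of the markers' log2 signals centred over the 12 pools, ranged from -1.02 to -0.15 in receptive and from -0.80 to 0.13 in non-receptive pools of day 7, against 0.44 to 0.53 in receptive and -0.71 to 1.41 in non-receptive pools of day 3. Among leukocyte markers 3 of 9 rose and 2 fell, 2 of 5 endothelial markers fell (CDH5 and TEK, each kept in 8 of 17 alternatives), and 4 of 4 measured markers of stratified squamous epithelium rose. On a second probe set KRT15 rose as well (2.46), while KRT5 did not pass (-0.05, limma adjusted p = 0.888). Of all named genes 17.1% passed between days. Of 5 smooth muscle markers none passed, 2 of them having an unadjusted p below 0.05. The log2 difference between the 3′ and 5′ probe sets of actin, read as a sign of RNA integrity, averaged 1.01 in receptive and 0.37 in non-receptive pools on day 7, against 1.99 in receptive and 0.63 in non-receptive pools on day 3. For gapd the difference averaged 0.67 and 0.68 on day 7, against 0.77 and 0.73 on day 3, and for ef1a -0.66 and -0.64 on day 7, against -1.12 and -0.66 on day 3, receptive pools first in each pair. In such tissue RNA, fewer cells of a type and less RNA per cell cannot be told apart.

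**Figure D1:**
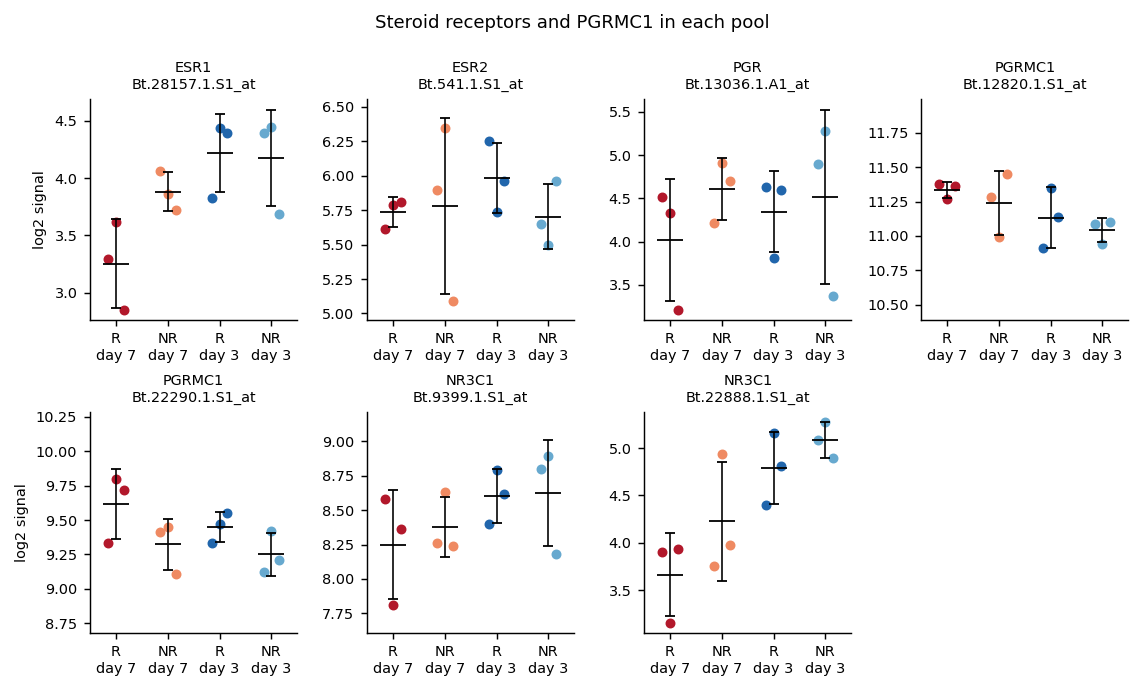
Log2 signal (vertical axis, a separate range in each panel) of the probe sets of ESR1, ESR2, PGR, PGRMC1 and NR3C1 in receptive (R) and non-receptive (NR) endometrium of days 7 and 3. Points are the 3 pools of a group in order of pool number, and bars are the mean ± SD. ESR1 was lowest in the receptive pools of day 7 (2.85 to 3.62), and the dim NR3C1 probe set had means of 3.67 and 4.23 on day 7 against 4.79 and 5.08 on day 3.

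The first comparison asked how these transcripts differed between day 7 and day 3, averaged over both receptivity groups (6 pools each). ESR1 and 1 of 2 probe sets of NR3C1 were less abundant on day 7. No member probe set was more abundant. Hence 2 of 21 probe sets (9.52%) passed an adjusted p of 0.05 in limma, against 14.2% of all probe sets (9.44% lower and 4.76% higher), so that the share of these genes that changed was not above that of the array. Of all calls 33.5% were higher on day 7, and the scaling moved this share to 44.1% after quantile normalization and 50.6% after median centring. At an unadjusted p below 0.05 there were 4 of 21, 19.0% against 30.8% overall. None of the 21 separated the 6 pools of day 7 from those of day 3 without overlap, as 7.72% of all probe sets did. The median change of the 21 probe sets was -0.085, that of all probe sets -0.05.

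ESR1 had log2 signals of 3.29, 3.62 and 2.85 in receptive and 4.06, 3.86 and 3.72 in non-receptive pools of day 7. On day 3 its signals were 3.83, 4.44 and 4.39 in receptive and 4.39, 4.45 and 3.69 in non-receptive pools. The 3 receptive pools of day 7 were the lowest of all 12, while the non-receptive pools of day 7 overlapped both groups of day 3. The mean was 3.57 ± 0.43 on day 7 and 4.20 ± 0.34 on day 3 (SD, n = 6 each), a log2 change of -0.63 (95% interval -1.05 to -0.22, or 0.645-fold, limma adjusted p = 0.0499). In the order of the 4 groups, receptive day 7 (3.25 ± 0.39) stood below non-receptive day 7 (3.88 ± 0.17), non-receptive day 3 (4.18 ± 0.42) and receptive day 3 (4.22 ± 0.34, SD, n = 3 each), and the last 3 neighbours in this order lay within their spread of each other.

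The call for ESR1 was at the edge of the threshold. It was held in 6 of 18 alternatives, with adjusted p between 0.0230 and 0.113, and the change stayed between -0.75 and -0.53. It was lost when arrays were centred on their medians (-0.57, adjusted p = 0.0661) and quantile normalized (-0.56, adjusted p = 0.0690). The pool with the lowest ESR1 signal on day 3, non-receptive pool 3, was also the pool of day 3 with the lowest stromal score (-0.71), and without it the change was -0.75 (adjusted p = 0.0230). In each of the 4 groups the pool with the highest stromal score also had the highest ESR1 signal. These were pool 2 of receptive day 3 (score 0.53, ESR1 4.44), non-receptive day 3 (1.41, 4.45) and receptive day 7 (-0.15, 3.62). In non-receptive day 7 it was pool 1 (0.13, 4.06). The lowest score and the lowest ESR1 signal shared a pool in both groups of day 3, but in neither group of day 7. There, non-receptive pool 2 (-0.80) had an ESR1 signal of 3.86, above that of pool 3 (3.72), whose score was -0.04. Likewise, receptive pool 1 (-1.02) had 3.29, above pool 3 (2.85), whose score was -0.95. The part of the stromal markers in the ESR1 change was not tested.

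NR3C1 had a negative change on both probe sets, of which only the dim one passed, and a difference between them was not tested. The dim probe set had 3.90, 3.16 and 3.94 in receptive and 3.76, 4.94 and 3.98 in non-receptive pools of day 7, against 4.40, 5.16 and 4.81 in receptive and 5.08, 5.27 and 4.89 in non-receptive pools of day 3. On day 7 only non-receptive pool 2 reached the range of day 3. The means were 3.95 ± 0.57 on day 7 and 4.93 ± 0.31 on day 3 (SD, n = 6 each), a change of -0.99 (95% interval -1.51 to -0.47, 0.504-fold, limma adjusted p = 0.0226). This call was held in 13 of 18 alternatives, the change lying between -1.17 and -0.86. The bright probe set had 8.58, 7.81 and 8.36 in receptive and 8.26, 8.63 and 8.24 in non-receptive pools of day 7, against 8.40, 8.79 and 8.62 in receptive and 8.80, 8.89 and 8.18 in non-receptive pools of day 3. Its days overlapped broadly, and its change of -0.30 (95% interval -0.68 to 0.08, adjusted p = 0.272) did not pass. Leaving out single pools moved the number of member probe sets called from 2 to between 0 and 4. There were none without receptive pool 3, non-receptive pool 1 or non-receptive pool 2 of day 3, or without non-receptive pool 1 or 3 of day 7, the dim NR3C1 probe set then having an adjusted p of at most 0.0541.

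PGR had 4.51, 4.33 and 3.21 in receptive and 4.21, 4.91 and 4.70 in non-receptive pools of day 7, against 4.63, 3.81 and 4.60 in receptive and 4.90, 5.28 and 3.37 in non-receptive pools of day 3. The lowest values came from 1 pool of each day and all 4 groups overlapped. The change of -0.12 had an interval from -0.92 to 0.68 (adjusted p = 0.860), so that a change of the size seen for ESR1, in either direction, was not detectable at this spread. The direction turned when single pools were left out, to 0.071 without non-receptive pool 2 of day 3 and to 0.082 without receptive pool 3 of day 7. In 2 of the 4 groups, receptive day 7 and non-receptive day 3, pool 3 was the lowest for both PGR and ESR1.

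ESR2 had 5.61, 5.79 and 5.81 in receptive and 5.90, 6.35 and 5.09 in non-receptive pools of day 7, against 6.25, 5.74 and 5.96 in receptive and 5.65, 5.50 and 5.96 in non-receptive pools of day 3. The highest and the lowest of the 12 values were both in the non-receptive pools of day 7. The change was -0.085 (95% interval -0.53 to 0.36, adjusted p = 0.816).

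PGRMC1 varied little. Its brighter probe set lay between 10.91 and 11.45 over the 12 pools and changed by 0.20 (95% interval -0.03 to 0.43, adjusted p = 0.225), and its other probe set lay between 9.11 and 9.80 and changed by 0.12 (95% interval -0.12 to 0.37, adjusted p = 0.502). Both intervals were much narrower than that of PGR.

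FKBP4 had 9.75, 10.19 and 9.49 in receptive and 9.50, 9.23 and 9.49 in non-receptive pools of day 7, against 9.83, 9.79 and 9.70 in receptive and 9.86, 9.71 and 9.78 in non-receptive pools of day 3. The pools of day 3 lay close together, between 9.70 and 9.86, while those of day 7 spread on both sides of them. The averaged change was -0.17 (95% interval -0.43 to 0.09, adjusted p = 0.363). FKBP5 ranged from 2.41 to 4.42 on day 7 and from 2.87 to 4.20 on day 3, with a change of -0.03 (95% interval -0.91 to 0.85, adjusted p = 0.966).

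**Figure D2:**
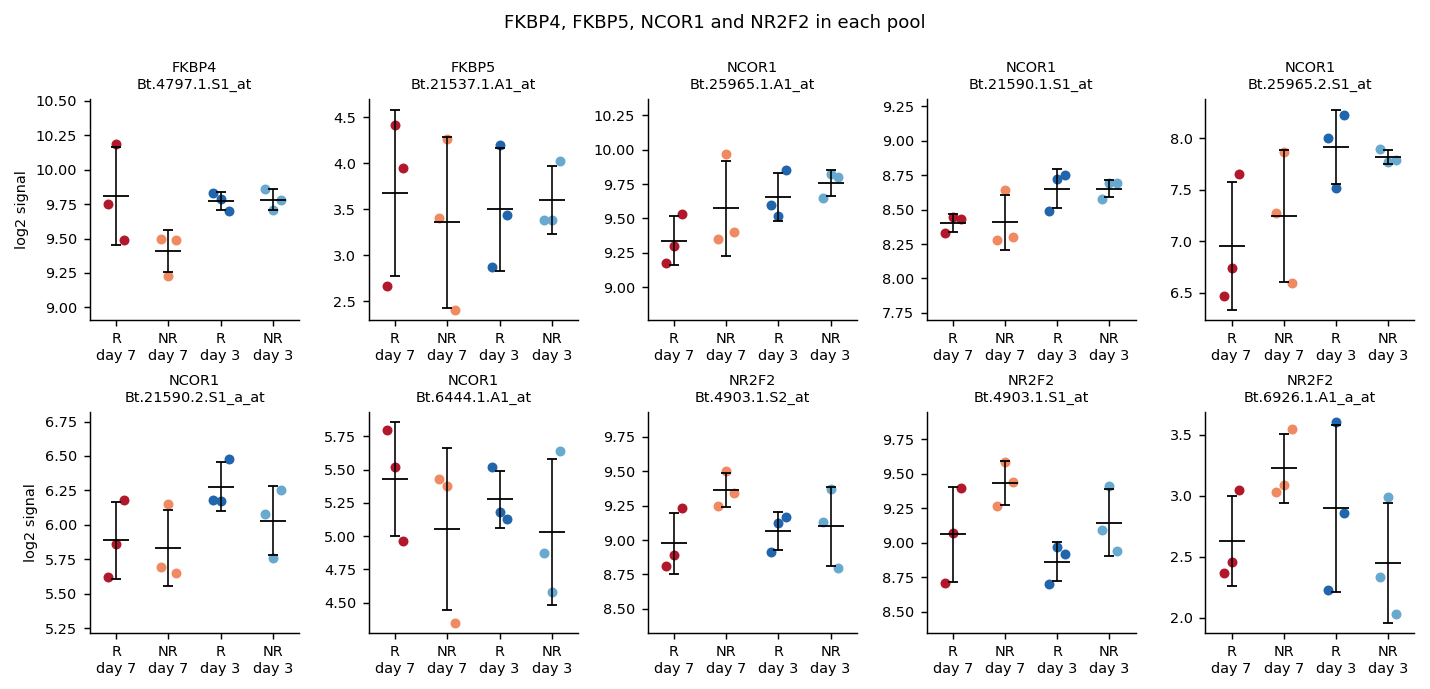
Log2 signal (vertical axis, a separate range in each panel) of FKBP4, FKBP5 and all probe sets of NCOR1 and NR2F2 in receptive (R) and non-receptive (NR) endometrium of days 7 and 3, with the 3 pools of a group as points in order of pool number and the mean ± SD as bars. The means of day 7 lay below those of day 3 on 4 of 5 NCOR1 probe sets, and the non-receptive pools of day 7 had the highest mean on all 3 NR2F2 probe sets.

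None of the 4 NCOA1 probe sets passed between days. Their differences were between -0.11 and 0.12, and all 4 intervals lay between -0.36 and 0.38. The brightest probe set had 8.45 to 8.96 on day 7 and 8.56 to 9.03 on day 3, so that the days overlapped.

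NCOR1 had a negative change on 4 of 5 probe sets, none of which passed. The third in signal had 6.47, 6.74 and 7.65 in receptive and 7.27, 7.87 and 6.59 in non-receptive pools of day 7, against 8.0, 7.52 and 8.23 in receptive and 7.90, 7.77 and 7.79 in non-receptive pools of day 3. Only 2 pools of day 7, receptive pool 3 and non-receptive pool 2, reached the range of day 3. The change was -0.77 (95% interval -1.34 to -0.20, adjusted p = 0.0728).

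The NCOR1 probe set next above it in signal had 8.33, 8.45 and 8.43 in receptive and 8.28, 8.64 and 8.30 in non-receptive pools of day 7, against 8.49, 8.72 and 8.75 in receptive and 8.58, 8.69 and 8.69 in non-receptive pools of day 3. Non-receptive pool 2 was again the pool of day 7 within the range of day 3, and the change was -0.25 (95% interval -0.44 to -0.05, adjusted p = 0.0874). The brightest and the fourth changed by -0.25 and -0.30, and the dimmest by 0.09, with a direction that turned when single pools were left out (-0.026 to 0.26). When only probe sets above the median signal were fitted and tested, the NCOR1 probe sets with changes of -0.77 and -0.25 described in full above passed (limma adjusted p = 0.0384 and 0.0454). Both the shared estimate of the spread and the set of tests adjusted for differ in that fit. Without non-receptive pool 2 of day 7, 3 of 5 NCOR1 probe sets passed (changes -0.93, -0.35 and -0.31).

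NR2F2 had 8.81, 8.89 and 9.23 in receptive and 9.25, 9.50 and 9.34 in non-receptive pools of day 7 on its brightest probe set, against 8.91, 9.12 and 9.17 in receptive and 9.13, 9.37 and 8.80 in non-receptive pools of day 3. On the other bright probe set it had 8.71, 9.07 and 9.40 in receptive and 9.27, 9.59 and 9.44 in non-receptive pools of day 7, against 8.70, 8.97 and 8.92 in receptive and 9.09, 9.41 and 8.94 in non-receptive pools of day 3. Receptive pools of day 7 overlapped with day 3 on both, and non-receptive pools of day 7 were at the upper end. The changes over the days were 0.09, 0.24 and, on the dim probe set, 0.25 (adjusted p = 0.669, 0.258 and 0.550).

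**Figure D3:**
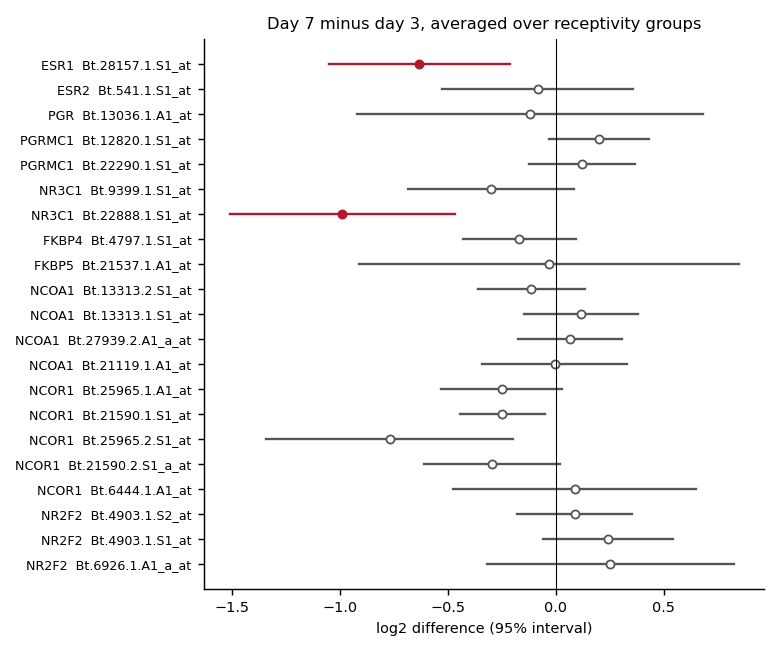
Log2 difference of day 7 minus day 3 (horizontal axis), averaged over the receptivity groups, for the 21 probe sets (rows), with 95% intervals from limma. Filled red symbols passed an adjusted p of 0.05, which were ESR1 (-0.63) and the dim NR3C1 probe set (-0.99), and 18 of 21 intervals lay within 1 log2 unit of 0.

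Within the receptivity groups (3 pools against 3), none of the 21 probe sets passed in receptive endometrium, where 1.96% of all probe sets did, and none passed in non-receptive endometrium, where 2.48% did. These shares over all probe sets, 471 and 596 calls, rested on single pools: there were 9 calls in receptive endometrium without receptive pool 1 of day 3, and 4 in non-receptive endometrium without non-receptive pool 1 of day 3. At an unadjusted p below 0.05 in limma there were 3 of 21 in receptive endometrium (14.3%, against 20.4% of all) and 2 of 21 in non-receptive endometrium (9.52%, against 20.5% of all). ESR1 changed by -0.97 in receptive endometrium (95% interval -1.56 to -0.38, adjusted p = 0.0848) with all day 7 pools below all day 3 pools, and by -0.30 in non-receptive endometrium (95% interval -0.89 to 0.29, adjusted p = 0.569). The dim NR3C1 probe set changed by -1.12 in receptive (adjusted p = 0.102) and by -0.85 in non-receptive endometrium (adjusted p = 0.185). In receptive endometrium 3 of 21 probe sets had all pools of day 7 below those of day 3 (ESR1, the dim NR3C1 probe set and the second NCOR1 probe set in signal), which was the case for 16.5% of all probe sets. In non-receptive endometrium 1 of 21, FKBP4, had all pools of day 7 below those of day 3 (-0.38, adjusted p = 0.236), as had 15.6% of all probe sets. The dim NR2F2 probe set alone had all of them above (0.77, adjusted p = 0.263), as had 10.3% of all probe sets.

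The difference between the 2 day changes was tested directly and passed for 0 of 21 probe sets, and for 0 of all probe sets (limma). No member reached an unadjusted p below 0.05, as 3.39% of all probe sets did. For ESR1 the difference was -0.67 (95% interval -1.50 to 0.16, unadjusted p = 0.103 in limma), for FKBP4 0.41 (95% interval -0.11 to 0.94) and for the dim NR2F2 probe set -1.04 (95% interval -2.19 to 0.10). The day change was therefore not shown to differ with receptivity for any of the 10 genes, and 13 of 21 intervals lay within 1 log2 unit of 0.

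Receptive endometrium was set against non-receptive endometrium to ask whether the hormone receptors differed with the later pregnancy. On day 7 none of the 21 probe sets passed, and 0% of all probe sets did. At an unadjusted p below 0.05 there were 3 of 21 (14.3%, against 5.81% of all): ESR1, FKBP4 and the brightest NR2F2 probe set, each with a limma adjusted p of 0.821.

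ESR1 averaged 3.25 ± 0.39 in receptive and 3.88 ± 0.17 in non-receptive pools of day 7 (SD, n = 3 each), a difference of -0.63 (95% interval -1.22 to -0.04). All 3 receptive pools were below all non-receptive pools, the nearest values being 3.62 and 3.72. FKBP4 averaged 9.81 ± 0.35 in receptive and 9.41 ± 0.15 in non-receptive pools, a difference of 0.40 (95% interval 0.03 to 0.77), and the groups overlapped because receptive pool 3 had 9.49. Without receptive pool 2, which had 10.19, the difference was 0.21. On its brightest probe set NR2F2 averaged 8.98 ± 0.22 in receptive and 9.36 ± 0.13 in non-receptive pools (-0.39, 95% interval -0.76 to -0.01). Its groups did not overlap, with 9.23 and 9.25 as the nearest values, and the other probe sets of NR2F2 gave -0.37, which was -0.20 without receptive pool 1, and -0.60.

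The 2 of 21 probe sets with all receptive below all non-receptive pools on day 7 (9.52%) compare with 5.23% of all probe sets. All 9 stromal markers had a negative difference in the same comparison, of which 0 passed. Of 4 squamous markers 3 had a negative difference (median -0.80) and 0 passed, 2 of them (KRT5 and KRT15) having an unadjusted p below 0.05, and their score ranged from -0.27 to 1.42 in receptive and from 1.41 to 1.67 in non-receptive pools. The actin 3′ to 5′ difference was 0.82 to 1.25 in receptive and 0.02 to 0.63 in non-receptive pools, while the means for gapd and ef1a were nearly the same in both. Their part in these differences was not tested. PGR differed by -0.59 (95% interval -1.72 to 0.54), with receptive pool 3 at 3.21 as the lowest of all pools, and the dim NR3C1 probe set by -0.56 (95% interval -1.30 to 0.18).

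On day 3 none of the 21 probe sets passed (0.0125% of all probe sets did), none reached an unadjusted p below 0.05 (5.26% of all did), and none separated the receptive from the non-receptive pools without overlap (10.8% of all did). The differences lay between -0.29, for the dim NR3C1 probe set, and 0.45, for the dim NR2F2 probe set. ESR1 averaged 4.22 ± 0.34 in receptive and 4.18 ± 0.42 in non-receptive pools (SD, n = 3 each), a difference of 0.04 (95% interval -0.55 to 0.63), and FKBP4 differed by -0.01 (95% interval -0.38 to 0.36). Averaged over both days, 0 of 21 probe sets passed, against 0.00416% of all, and 2 of 21 had an unadjusted p below 0.05 (9.52%, against 7.38% of all). These were the dimmer probe set of PGRMC1 (0.25, limma adjusted p = 0.671) and the second of NR2F2 in signal (-0.33, limma adjusted p = 0.665).

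**Figure D4:**
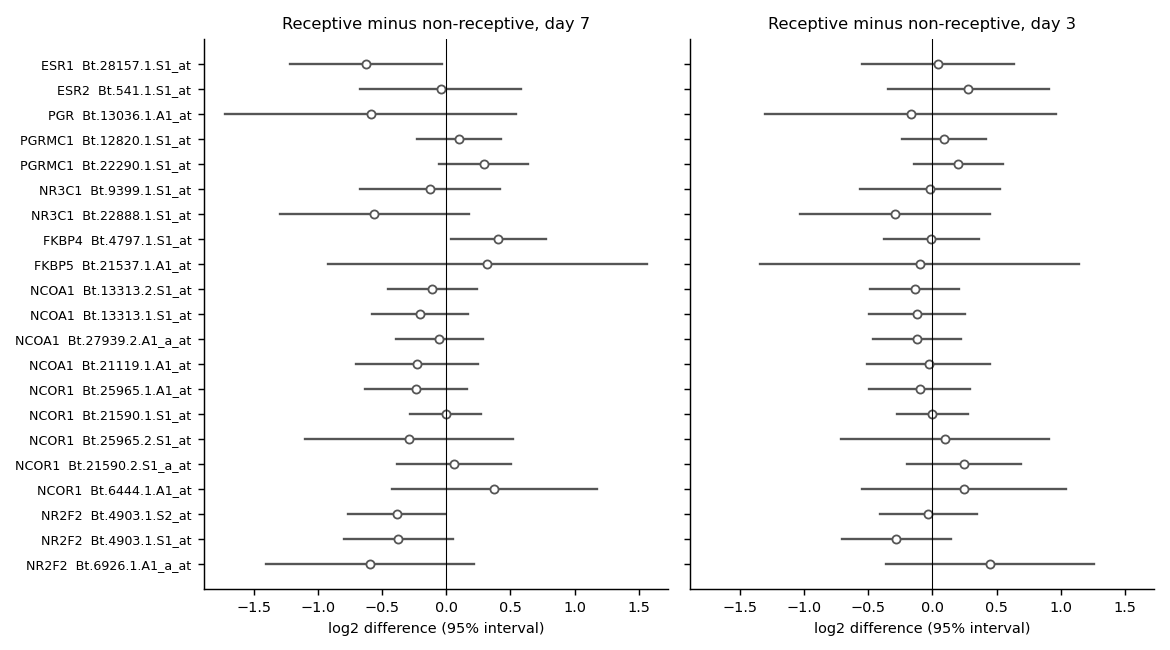
Log2 difference of receptive minus non-receptive endometrium (horizontal axis) on day 7 (left) and day 3 (right) for the 21 probe sets (rows), with 95% intervals from limma. Open symbols did not pass an adjusted p of 0.05, which holds for all of them. On day 7 the intervals of ESR1, FKBP4 and 1 NR2F2 probe set leave out 0, and on day 3 none does.

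Among named genes that fell on day 7, those with signals most like ESR1 over the 12 pools were sought by the mean absolute difference of log2 signals, each centred on its own mean. Of 1265 candidates the closest were CDH5 (0.16), the cadherin of endothelial junctions, U2SURP (0.18), a protein associated with the U2 spliceosome, and SLCO2B1 (0.19), an organic anion transporter that carries steroid sulfates. Their day changes were -0.79, -0.64 and -0.65. CDH5 is also one of the 2 endothelial markers that fell.

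The genes around the receptors were read from lists of related genes, 1 probe set per gene, against a background of 17.1% of 9155 named genes changed in either direction between days. Of 20 other nuclear receptors measured, 3 rose and 2 fell on day 7. NR2F1 (COUP-TFI), the paralog of NR2F2, lay between 6.43 and 7.25 on day 7, with a median of 6.695, against 7.30 to 9.40 on day 3, with a median of 8.515. The pools of the 2 days did not overlap, as was the case for 7.72% of all probe sets. NR2F1 fell by 1.65 on the log2 scale (95% interval -2.27 to -1.03, 0.318-fold, limma adjusted p = 0.00642), and this passed in 17 of 17 alternatives run for these genes. NR1H3, the oxysterol receptor LXR alpha, also fell (-0.38). RXRA, the retinoid X receptor alpha and partner of many nuclear receptors, rose (0.57), as did NR0B1 (0.30), an orphan receptor also called DAX1. NR4A2 (NURR1) rose on its brightest probe set (0.90) while a second one fell (-0.46, adjusted p = 0.0259), so that its direction depended on the probe set. The calls of NR1H3, RXRA and NR4A2 were kept in 9, 10 and 10 of 17 alternatives, and that of NR0B1 in 17 of 17. A second NR0B1 probe set changed by 0.40 and did not pass (limma adjusted p = 0.0862), nor did a second, dim one of NR1H3 (-0.12, limma adjusted p = 0.756).

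Of 17 other coregulators 1 rose and 4 fell. SRA1, which acts as a coactivator RNA and protein of steroid receptors, had 8.83 to 9.22 on day 7 and 8.48 to 8.78 on day 3, without overlap (0.40, limma adjusted p = 0.00684). PRMT1, an arginine methyltransferase that acts as a coactivator (-0.60), SMARCA4, the ATPase BRG1 of the SWI/SNF remodelling complex (-0.51), TBL1X, a component of the NCOR corepressor complex (-0.41), and the RNA helicase DDX17 (-0.35) fell. These 5 calls were kept in 17 of 17 alternatives, none of which used another probe set. Other probe sets of TBL1X (-0.11 on the brighter, limma adjusted p = 0.531), PRMT1 (-0.045, limma adjusted p = 0.900) and DDX17 (-0.22, limma adjusted p = 0.543) did not pass. Those of PRMT1 and DDX17 were dim (mean signal 5.24 and 5.30). SMARCA4 also fell on a second probe set (-0.75, limma adjusted p = 0.00553), and its remaining ones did not pass. The median change of the list was -0.05, against -0.02 for all named genes.

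Of 19 chaperones of the receptor complex none rose and 4 fell, and 13 of 19 had a negative change (median -0.23). HSP90AA1, the inducible cytosolic HSP90 that holds steroid receptors in the hormone-binding state, had 12.25 to 12.75 on day 7 and 12.92 to 13.21 on day 3 (-0.54, limma adjusted p = 0.00460), and a second probe set fell by 1.03 on the log2 scale. HSP90AB1 (-0.27) and AHSA1, an activator of the HSP90 ATPase (-0.31), also fell, without overlap of the days, as did PPID (cyclophilin 40) on its brightest probe set (-0.36), while another PPID probe set rose (0.66, adjusted p = 0.00913). The calls of HSP90AB1, AHSA1 and PPID were kept in 9, 13 and 10 of 17 alternatives.

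Of 19 enzymes and carriers of steroid synthesis and metabolism 4 rose and none fell. HSD11B2, which inactivates cortisol, averaged 8.50 ± 0.41 on day 7 and 7.59 ± 0.36 on day 3 (SD, n = 6 each), a change of 0.91 (limma adjusted p = 0.0198). HSD17B11, a short-chain hydroxysteroid dehydrogenase, had 12.08 to 12.80 on day 7 and 10.99 to 11.87 on day 3 (0.86, limma adjusted p = 0.0128). STAR, the cholesterol carrier of mitochondria, and CYP11A1, the side-chain cleavage enzyme, rose by 0.83 and 0.54 (limma adjusted p = 0.0299 and 0.0364), calls that were kept in 9 and 7 of 17 alternatives. The mean signals of STAR and CYP11A1, 6.05 and 5.11, lay below that of the median probe set (6.68). The only other membrane receptor measured, PAQR6, changed by 0.41 (adjusted p = 0.146).

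Genes known to respond to these receptors were read in the same way, and the counts are side by side with those of the receptors. These lists, like those above, were chosen with earlier results of these data known. Their counts are therefore no independent test of a hormone response. Of 17 progesterone-responsive genes 5 rose and 2 fell, with a median of 0.59. SPP1 (osteopontin) had 10.68 to 12.93 on day 7 and 8.32 to 9.91 on day 3 (2.87, limma adjusted p = 0.00460), and FABP3, a fatty acid binding protein, rose by 2.83, LGALS9 by 1.14 and GPX3 by 0.89. SERPINA14 (uterine milk protein) rose as well and is given no fold because 2 non-receptive pools of day 3 were at the floor. MSTN and HOXA10 fell (-1.66 and -1.33), and were kept in 10 and 12 of 17 alternatives. GPX3, HOXA10 and SERPINA14 had mean signals of 4.48, 4.78 and 6.08, below that of the median probe set (6.68).

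Of 11 estrogen-responsive genes 1 rose and 2 fell, with a median of -0.12. CCND1 (cyclin D1) fell by 0.57, with 5.75 to 6.12 on day 7 and 6.38 to 6.77 on day 3 (limma adjusted p = 0.00579). Complement C3 fell (-0.77) and trefoil factor TFF3 rose (0.58), calls kept in 8 and 14 of 17 alternatives, while the oxytocin receptor OXTR did not pass (-1.17, adjusted p = 0.0546). Of 14 glucocorticoid-responsive genes none passed, and 3 (DUSP1, ERRFI1 and SGK1) had an unadjusted p below 0.05 in limma, as did 30.8% of all probe sets. Between receptive and non-receptive endometrium 0 genes passed in any of these lists, either on day 7, where 0% of named genes did, or on day 3, where 0.0109% did. At an unadjusted p below 0.05 in limma there were 4 of 17 progesterone-responsive genes on day 3, against 5.26% of all probe sets, named or not. They were SERPINA14, LPL, FABP3 and ANPEP, each with a higher mean in receptive pools and an adjusted p of 0.936. The differences were 2.25 for LPL, 1.81 for FABP3 and 1.34 for ANPEP. On day 7 there was 1 of 17, DKK1, with means of 3.73 in receptive and 5.45 in non-receptive pools (-1.72, limma adjusted p = 0.312). Other lists held such genes too. On day 7 these were 2 of 17 coregulators (SRA1 0.30, PRMT1 0.41), 1 of 11 estrogen-responsive (OXTR 1.43) and 1 of 14 glucocorticoid-responsive genes (GADD45A 0.61). On day 3 they were 2 of 20 nuclear receptors (PPARA 0.99, NR0B1 -0.29), 1 of 17 coregulators (PPARGC1A 0.83) and 2 of 19 steroid enzymes. Over all probe sets the share was 5.81% on day 7 and 5.26% on day 3.

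**Figure D5:**
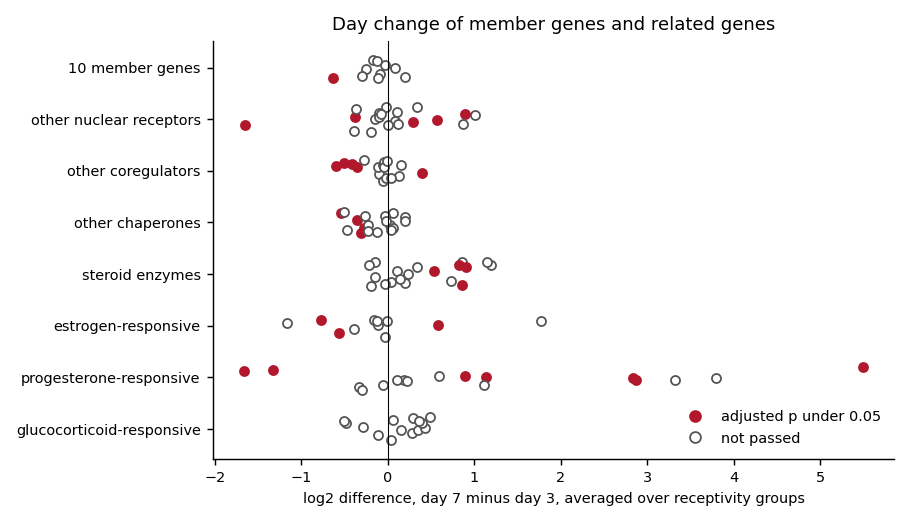
Log2 difference of day 7 minus day 3 (horizontal axis), averaged over the receptivity groups, for the 10 genes and for related genes by list, 1 point per gene (its probe set of highest mean signal). Filled red points passed an adjusted p of 0.05 in limma. PGR is shown both among the 10 genes and among the estrogen-responsive genes. NR2F1 (-1.65) was the lowest of the other nuclear receptors, SERPINA14, at the far right, had 2 pools of day 3 at the floor, and none of 14 glucocorticoid-responsive genes passed.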

How the data were processed

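The 12 RNA pools were hybridised to Affymetrix bovine arrays. The authors deposited 1 table of log2 signals for 24128 probe sets, with values from 0 to 14.06, of which 0 is a floor that 1652 probe sets met in some pool. Per the submitters' processing notes, PLIER, Affymetrix Expression Console and GCOS 1.1.1 were used, in an unstated order, and how arrays were scaled was not given in the sources used here. Values were used as deposited, without the 112 control probe sets and with no filter on low signal. The functions lmFit and eBayes of limma 3.58.1, in R 4.3.3, were run on the 12 arrays with 4 group means, and the procedure was tested on simulated data. Tests were two-sided with Benjamini-Hochberg adjustment over 24016 probe sets and a threshold of 0.05. The number of arrays limits the precision, and intervals are at 95%.

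Genes were named from the platform annotation (13292 probe sets with 1 symbol, 86 with several, 10638 with none), and the gene identifiers of all 21 member probe sets carried the same symbol in RefSeq. All member probe sets were named. Of the related lists, counts over each gene's probe set of highest mean signal are given, with up to 4 genes per list of smallest p and, where more passed, those too. The 3 genes most like ESR1 were the closest among named genes called lower. The members and lists were chosen with earlier results of these data known. Alternatives were quantile normalization, median centring, a low-signal filter, leaving out probe sets at the floor, a pool-number block, a variance trend with robust eBayes, array weights, only the compared groups, 1 probe set per gene, and leaving out each pool.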

Additional observations from a re-analysis of the deposited data

How the results depend on the processing

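The number of member probe sets called between days was 2, and 1 after quantile normalization, median centring, with a variance trend or with 1 probe set per gene, 5 with array weights, and 0 to 4 when single pools were left out. The low-signal filter left 2, both of NCOR1, since the probe sets of ESR1 and NR3C1 called otherwise are dim and were removed. With array weights 1 was called in non-receptive endometrium (NR3C1). All other member counts remained 0. The change of PGR ranged from -0.41 to 0.082 and that of the dimmest NCOR1 probe set from -0.026 to 0.26 when pools were left out. The positive values of PGR were 0.071 and 0.082, and the negative ones of NCOR1 were -0.026, -0.0067 and -0.0075 (without non-receptive pool 2 of day 3, receptive pool 1 of day 7 or non-receptive pool 1 of day 7). The cause was not tested. Over all probe sets 3412 were called between days, 1861 to 3617 without single pools (1861 without non-receptive pool 1 of day 3, 2146 without non-receptive pool 1 of day 7, 2190 without receptive pool 3 of day 3) and 5611 with array weights. Within receptive endometrium the 471 calls over all probe sets became 9 to 615 without single pools, falling by more than 1.5 times for each pool except receptive pool 2 and non-receptive pool 3 of day 3 and non-receptive pools 2 and 3 of day 7. Within non-receptive endometrium the 596 calls became 4 to 534, with such falls without receptive pool 3 or non-receptive pools 1 or 2 of day 3 and without any non-receptive pool of day 7. Both were 37 with only the compared groups in the fit, and 1275 and 3141 with array weights. The share of calls that were higher on day 7 was 33.5%, 44.1% after quantile normalization and 50.6% after median centring.

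The deviations of pools with the same number from their group means had correlations of -0.11 to 0.14, over 0.1 in 3 of 12 pairs. Between days they were 0.14, 0.05 and 0.12 in receptive and 0.02, 0.03 and -0.04 in non-receptive endometrium. With 3 pools per group these values cannot show whether animals were shared, and no label says that they were. With the replicate block 2 member probe sets were called, ESR1 (adjusted p = 0.0471) and NR3C1 (adjusted p = 0.0371), and the block changed no other member call, while calls over all probe sets went to 155 in receptive and 314 in non-receptive endometrium, against 471 and 596 without it. Low signal limits what the array can show for ESR1, PGR, FKBP5 and the dim probe sets of NR3C1 and NR2F2, whose within-group SD was 0.34 to 0.75, against a median of 0.25.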
